A study of Mus musculus with 8 samples.

Results

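Tbx2, Tbx3 and Tbx5 are mouse genes of the T-box family, whose proteins bind DNA through a shared T-box domain. Tbx2 and Tbx3 are closely related transcriptional repressors, and Tbx5 is an activator of heart and forelimb development. On the mouse CpG island array analysed here the 3 genes were taken by their names in the array design, which gave 68 of 88737 probes, 40 named Tbx2, 22 named Tbx3 and 6 named Tbx5. After probes with a weak input signal had been left out, 59 remained, 35 of Tbx2, 20 of Tbx3 and 4 of Tbx5. Probes whose starts lay up to 500 bp apart were joined, so that the 59 probes formed 12 of the 15415 regions on the array. Of these, 10 had at least 3 probes and were compared with the 13147 regions of that size, and the others, Tbx2 region 6 with 2 probes and Tbx5 region 1 with 1 probe, are given as values. The members were taken by gene name, and the 3 genes were chosen with earlier results of these data known.

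Methylated DNA was measured by immunoprecipitation with an antibody against 5-methylcytidine (mDIP). Each array compared the antibody-bound DNA of a sample, in Cy5, with the input DNA of the same sample, in Cy3. The 8 arrays were 8 groups of 1 array each: aid-/- embryonic stem (ES) cells, mbd4-/- ES cells, ES cells with a Gadd45a knock down, wild-type ES cells, liver of aid-/- mice, liver of mbd4-/- mice, spleen of aid-/- mice and spleen of mbd4-/- mice. The aid gene encodes activation-induced deaminase, Mbd4 is a thymine glycosylase that binds methylated CpG sites, and Gadd45a is a DNA damage response gene. The tissues came from C57BL6/J mice aged 6 months, and their DNA was supplied by another laboratory for each genotype, so that supplier and genotype cannot be told apart. All tissue arrays carry a knockout, and wild-type liver and spleen are not analysed here. The labels used here give no strain, clone or culture condition for the ES cells, do not say how Gadd45a was knocked down, and give no number of animals. No group has a replicate, and the arrays show DNA and not RNA, so they check neither the knockouts nor the knockdown.

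In vertebrate genomes cytosine methylation lies mostly at CpG sites. CpG islands, the CpG-rich stretches found at many promoters, are usually unmethylated, and the islands of developmental regulators such as the T-box genes are often long and lie at several places along the gene. Tbx3 is expressed in mouse ES cells, where it takes part in self-renewal, and both Tbx2 and Tbx3 can repress the cell cycle inhibitor genes Cdkn2a and Cdkn1a. In the mouse embryo Tbx3 is needed for growth of the liver bud, and Tbx5 is best known for its role in the heart, where its loss causes limb and heart malformation in humans (Holt-Oram syndrome).

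The value of a probe is the log2 ratio of bound over input signal minus the median of its array, and a region's level is the mean over its probes, written below as a log2 ratio. It ranks regions by antibody binding within an array and is no methylation percentage. Its upper end differed between arrays: the plateau, taken as the 98th percentile over regions on autosomes, was 4.44, 4.26, 2.72 and 3.34 in aid-/-, mbd4-/-, Gadd45a knockdown and wild-type ES cells, 2.25 in aid-/- liver and 3.98 in mbd4-/- liver, and 2.28 in aid-/- spleen and 3.63 in mbd4-/- spleen. The share of bound probes well above background ran from 70.6% on the aid-/- ES array to 96.2% on the mbd4-/- liver array. The arrays were scanned on 4 days, with aid-/- ES, wild-type ES, aid-/- liver and aid-/- spleen on day 1, both mbd4-/- tissues on day 2, mbd4-/- ES on day 3 and the Gadd45a knockdown on day 4. Every aid-/- array was therefore scanned on a day that held no mbd4-/- array, and genotype and scan day cannot be told apart between them. The mbd4-/- and Gadd45a knockdown ES arrays were also read with an older version of the scanner software. CpG islands of tissue marker genes did not check the labels: of 6 pluripotency, 3 liver and 5 spleen and blood marker genes with regions on the array (11, 5 and 10 regions), none had a region past the limma test between ES cells and tissues described below. Of all regions 0.198% passed that test, so these few marker regions could not check the labels either way.

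All positions are in genome build mm9. Tbx3 regions lay between 120120037 and 120133040 on chromosome 5, Tbx5 regions between 120295223 and 120317248 on the same chromosome, and Tbx2 regions between 85642939 and 85658187 on chromosome 11. The array design gives a gene name for each probe, and no annotation of exons, introns or untranslated parts of the same build was used here. The probes shown are those of the region that varied most among the 3 genes, Tbx3 region 2, followed by examples from Tbx2 region 4, Tbx5 region 2 and an unnamed region between Tbx3 and Tbx5. Capitals mark CpG sites, and each sequence is that of the array probe, as the scanner files give it.
Tbx3 region 2, chr5:120130342-120130388: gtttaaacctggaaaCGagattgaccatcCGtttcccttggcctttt
Tbx3 region 2, chr5:120130512-120130556: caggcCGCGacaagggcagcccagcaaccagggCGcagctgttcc
Tbx3 region 2, chr5:120130634-120130678: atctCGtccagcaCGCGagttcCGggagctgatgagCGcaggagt
Tbx3 region 2, chr5:120130713-120130757: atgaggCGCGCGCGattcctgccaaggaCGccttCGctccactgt
Tbx3 region 2, chr5:120130938-120130982: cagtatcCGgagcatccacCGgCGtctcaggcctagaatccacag
Tbx3 region 2, chr5:120131042-120131086: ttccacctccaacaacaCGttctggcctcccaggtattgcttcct
Tbx2 region 4, chr11:85650515-85650559: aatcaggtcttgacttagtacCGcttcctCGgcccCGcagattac
Tbx2 region 4, chr11:85651342-85651386: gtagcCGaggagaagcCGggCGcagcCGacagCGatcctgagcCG
Tbx2 region 4, chr11:85651534-85651578: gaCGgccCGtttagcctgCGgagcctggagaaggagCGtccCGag
Tbx5 region 2, chr5:120316859-120316913: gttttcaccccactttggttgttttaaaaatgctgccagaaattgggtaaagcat
Tbx5 region 2, chr5:120316974-120317018: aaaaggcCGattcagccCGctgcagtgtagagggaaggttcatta
Tbx5 region 2, chr5:120317204-120317248: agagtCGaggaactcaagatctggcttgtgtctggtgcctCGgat
Unnamed region, chr5:120246491-120246535: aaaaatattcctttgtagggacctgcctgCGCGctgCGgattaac
Unnamed region, chr5:120246641-120246685: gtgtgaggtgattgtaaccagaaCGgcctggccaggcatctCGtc
Unnamed region, chr5:120246772-120246816: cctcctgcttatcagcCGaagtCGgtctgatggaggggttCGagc
The 6 probes of Tbx3 region 2 held 20 CpG sites, 7.35 for each 100 probe bases, against a median of 5.47 over the 13147 regions. Tbx5 region 2 held 4 CpG sites in 3 probes, 2.76 for each 100 bases, and its first probe held none. Tbx3 region 1 was nearly as dense as region 2, with 6.91 CpG sites for each 100 bases, and it varied least of the 10 regions.

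Tbx3 carried the strongest contrast of the 3 genes. Its region 2 (chr5:120130342-120131086) was at 0.59 in aid-/- ES cells, −0.58 in mbd4-/- ES cells, −1.16 in Gadd45a knockdown ES cells and −0.39 in wild-type ES cells, as log2 ratios. In tissues the same region was at 2.14 in aid-/- liver, 3.41 in mbd4-/- liver, 1.29 in aid-/- spleen and 1.13 in mbd4-/- spleen. Every tissue array was above every ES array, and both livers were above both spleens. Its range over the 8 arrays, highest minus lowest, was 4.56 log2 units, the 91st widest of 13147 regions, whose median range was 1.09 and 90th percentile 2.44. Within each array it ranked at percentile 78.8 in aid-/- ES, 30.6 in mbd4-/- ES, 7.0 in Gadd45a knockdown ES and 34.1 in wild-type ES cells, against 97.0 in aid-/- liver and 95.3 in mbd4-/- liver and 90.8 in aid-/- spleen and 87.1 in mbd4-/- spleen. As a percentage of the array's plateau it reached 95.0 in aid-/- liver, 85.5 in mbd4-/- liver, 56.8 in aid-/- spleen and 31.1 in mbd4-/- spleen, against 13.2 at most in ES cells.

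**Figure D1:**
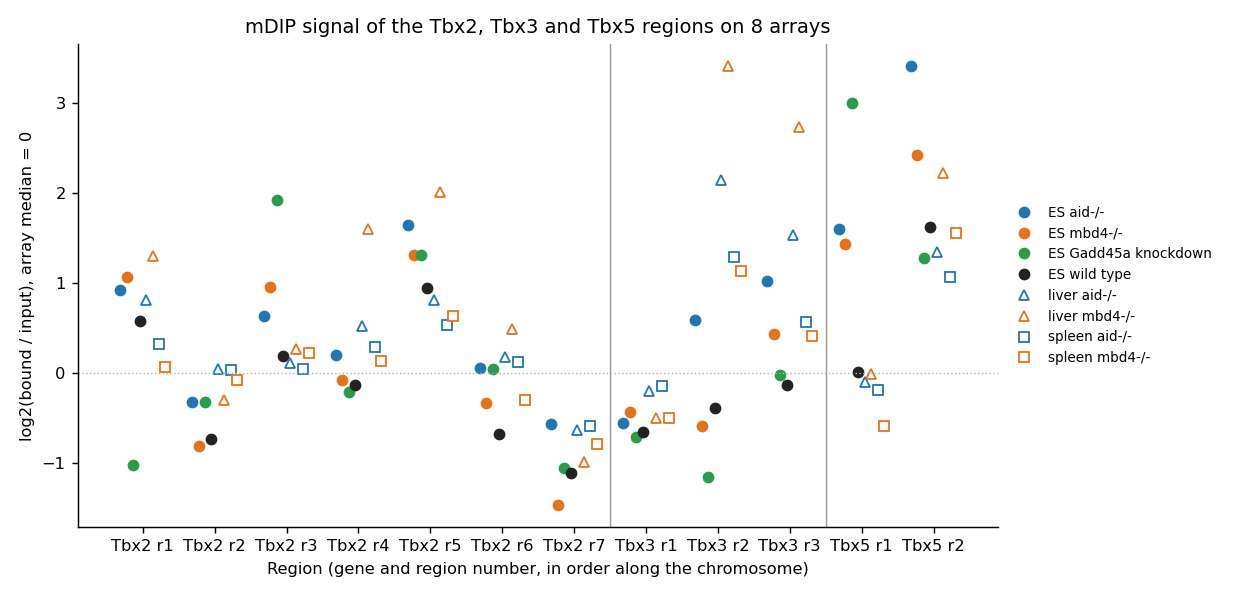
Level of each region of Tbx2, Tbx3 and Tbx5 (horizontal axis, gene and region number) on each of the 8 arrays (1 symbol an array), as the mean log2 ratio of bound over input minus the array median (vertical axis). Tbx3 region 2 runs from −1.16 in Gadd45a knockdown ES cells to 3.41 in mbd4-/- liver, while Tbx3 region 1 stays between −0.71 and −0.14.

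The contrast was spread along the region rather than carried by 1 probe. Both liver arrays were above all 4 ES arrays at 6 of the 6 probes, and all 4 tissue arrays were above all 4 ES arrays at 5 of 6. The mbd4-/- liver array gave the highest value at each of the 6 probes. The probe with the most CpG sites (6, at chr5:120130713-120130757) had log2 ratios of 0.86, −0.12, −1.23 and −0.82 in aid-/-, mbd4-/-, Gadd45a knockdown and wild-type ES cells, against 2.46 in aid-/- liver and 4.08 in mbd4-/- liver and 1.34 in aid-/- spleen and 1.54 in mbd4-/- spleen. The first probe, at chr5:120130342-120130388, was the one at which a tissue fell below an ES array: it was at 1.36 in aid-/- ES cells and at 0.80 in mbd4-/- spleen. In descending order of the region's level, mbd4-/- liver stood above aid-/- liver, and aid-/- liver above aid-/- spleen, by more than 1 SD of the difference over probes. The lower neighbours in that order (aid-/- spleen, mbd4-/- spleen, aid-/- ES, wild-type ES, mbd4-/- ES and Gadd45a knockdown ES) each differed from the next by less than 1 SD over probes.

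**Figure D2:**
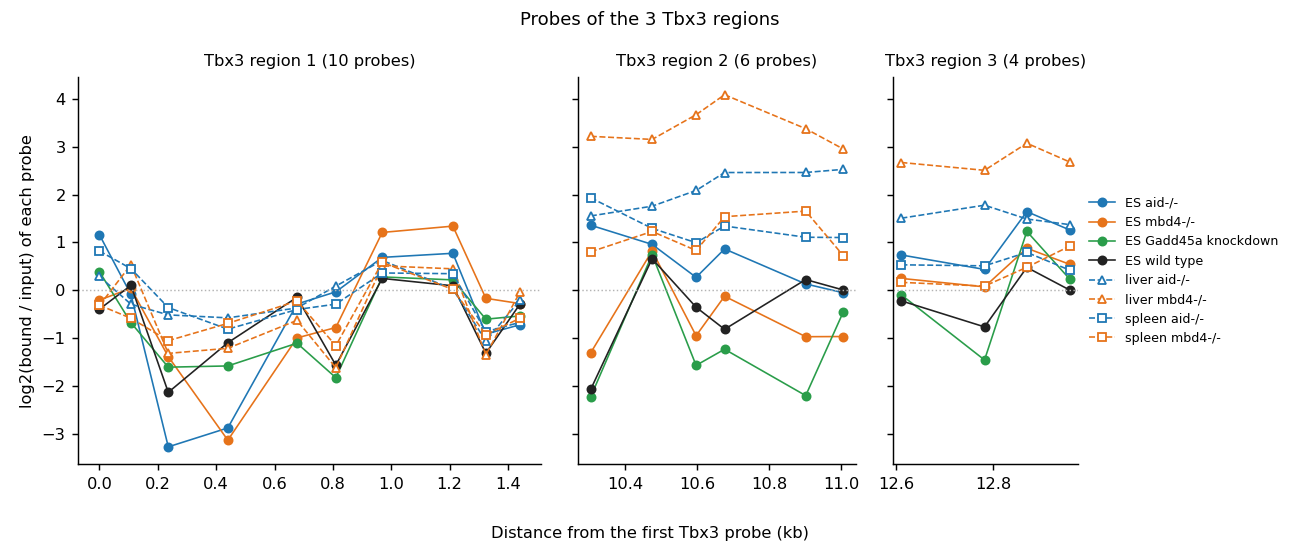
Log2 ratio of every used Tbx3 probe (bound over input, minus array median), drawn by region against the distance from the first Tbx3 probe in kb, with 1 line for each array. In region 2 the liver lines lie above the ES lines at all 6 probes, and in region 1 the lines of all 8 arrays intermingle.

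The other Tbx3 regions, on either side, behaved differently from each other. Region 3 (chr5:120132648-120133040, 4 probes) was at 1.02 in aid-/- ES, 0.43 in mbd4-/- ES, −0.02 in Gadd45a knockdown ES and −0.13 in wild-type ES cells. It was at 1.54 in aid-/- liver and 2.73 in mbd4-/- liver, against 0.56 in aid-/- spleen and 0.41 in mbd4-/- spleen. Both livers were above all the other arrays, and the spleens lay within the ES range. Region 1 (chr5:120120037-120121523), the longest with 10 used probes and 32 CpG sites, was at −0.56, −0.44, −0.71 and −0.65 in aid-/-, mbd4-/-, Gadd45a knockdown and wild-type ES cells. In tissues it was at −0.20 in aid-/- liver and −0.50 in mbd4-/- liver and at −0.14 in aid-/- spleen and −0.49 in mbd4-/- spleen. It was below the array median on all 8 arrays, its range was 0.56 log2 units, and its rank within an array ran from percentile 17.6 to 46.0.

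The larger Tbx5 region was above the median of every array. This region 2 (chr5:120316859-120317248, 3 probes) was at 3.41 in aid-/- ES, 2.42 in mbd4-/- ES, 1.28 in Gadd45a knockdown ES and 1.62 in wild-type ES cells. In tissues it was at 1.35 in aid-/- liver, 2.22 in mbd4-/- liver, 1.06 in aid-/- spleen and 1.55 in mbd4-/- spleen. It ranked between percentiles 88.6 and 94.8 on all 8 arrays, and stood at 42.7% to 76.7% of their plateaus. The aid-/- ES array gave the highest value at 3 of 3 probes, and ES and tissue levels overlapped. Tbx5 region 1, a single probe with 1 CpG site at chr5:120295223-120295270, was at 1.60, 1.44, 3.00 and 0.02 in aid-/-, mbd4-/-, Gadd45a knockdown and wild-type ES cells, and between −0.59 and −0.01 in the 4 tissue arrays. All 4 ES arrays were above all 4 tissue arrays there, with wild-type ES cells just above them, but 1 probe gives no measure of its own spread. Its differences from wild-type ES cells were 1.59 in aid-/-, 1.42 in mbd4-/- and 2.98 in Gadd45a knockdown ES cells.

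The 7 regions of Tbx2 differed in level from one another, and their ranges over the 8 arrays ran from 0.86 (region 2) to 2.31 (region 1) log2 units. Region 7 (chr11:85657554-85658187, 5 probes) was below the median on all 8 arrays, between −1.46 in mbd4-/- ES cells and −0.56 in aid-/- ES cells. Region 5 (chr11:85654243-85654476, 3 probes) was above the median on all 8, at 1.65, 1.31, 1.31 and 0.94 in aid-/-, mbd4-/-, Gadd45a knockdown and wild-type ES cells, 0.81 in aid-/- liver and 2.01 in mbd4-/- liver, and 0.53 in aid-/- spleen and 0.64 in mbd4-/- spleen. Region 2 (chr11:85645473-85646350, 7 probes) lay between −0.81 and 0.05, with the 4 ES arrays from −0.81 to −0.32 and the 4 tissue arrays from −0.30 to 0.05. Region 6 (chr11:85655391-85655533, 2 probes) ran from −0.67 in wild-type ES cells to 0.50 in mbd4-/- liver.

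Single arrays stood out at 3 further Tbx2 regions. Region 4 (chr11:85650442-85651840, 11 probes, 26 CpG sites) was at 0.21, −0.08, −0.20 and −0.13 in aid-/-, mbd4-/-, Gadd45a knockdown and wild-type ES cells, at 0.52 in aid-/- liver and 1.60 in mbd4-/- liver, and at 0.29 in aid-/- spleen and 0.14 in mbd4-/- spleen. The mbd4-/- liver array was the highest at 9 of its 11 probes. Region 3 (chr11:85646882-85647150, 4 probes) was at 1.92 in Gadd45a knockdown ES cells, against 0.64 in aid-/- ES, 0.96 in mbd4-/- ES and 0.19 in wild-type ES cells, and at 0.11 in aid-/- liver and 0.27 in mbd4-/- liver and 0.04 in aid-/- spleen and 0.22 in mbd4-/- spleen. Region 1 (chr11:85642939-85643194, 3 probes) was at −1.02 in Gadd45a knockdown ES cells, against 0.93, 1.06 and 0.58 in aid-/-, mbd4-/- and wild-type ES cells, 0.81 in aid-/- liver and 1.30 in mbd4-/- liver, and 0.33 in aid-/- spleen and 0.07 in mbd4-/- spleen.

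**Figure D3:**
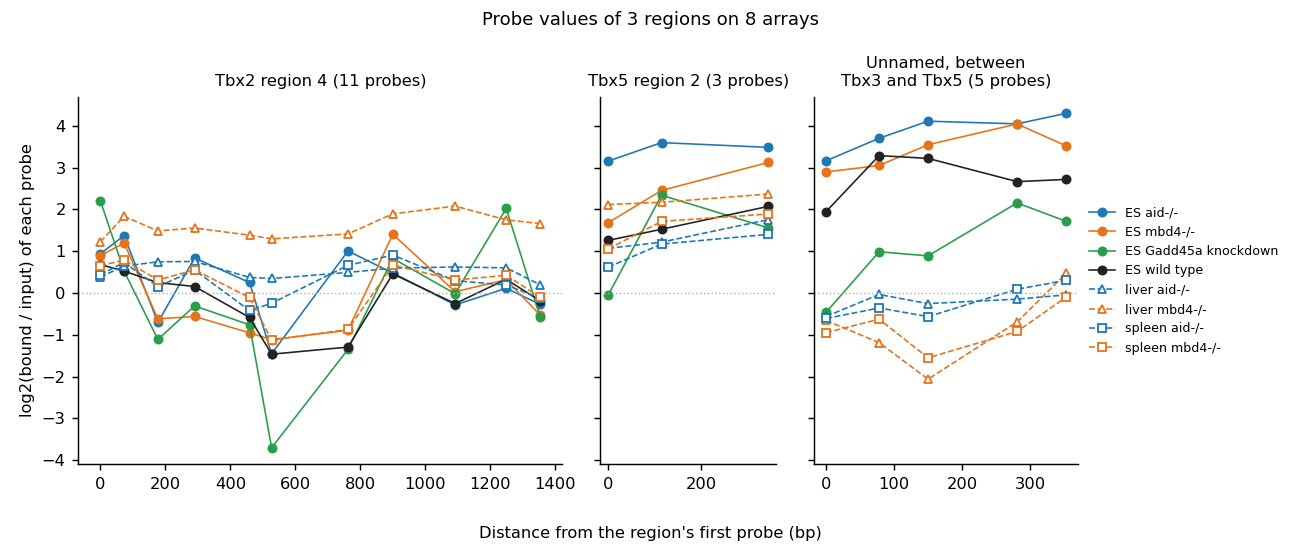
Log2 ratio (bound over input, minus array median) of the probes of Tbx2 region 4, Tbx5 region 2 and the unnamed region between Tbx3 and Tbx5, against the distance from each region's first probe in base pairs, with 1 line for each array. In the unnamed region the 4 ES lines lie above the 4 tissue lines at all 5 probes, and in Tbx2 region 4 the mbd4-/- liver line is the highest at 9 of 11.

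Each ES genotype was then set against wild-type ES cells, each of the factors lost having been proposed to act in DNA demethylation. With 1 array a group there is no test, and listing a region as higher or lower required a difference in level of 1 log2 unit or more, with 75% or more of the probes differing the same way. In aid-/- ES cells 2 of the 10 member regions were listed as higher and none as lower, where 8.74% of all regions were higher and 2.18% lower. Tbx5 region 2 was at 3.41 in aid-/- against 1.62 in wild-type ES cells, a difference of 1.79 ± 0.34 (SD over 3 probes). Tbx3 region 3 was at 1.02 in aid-/- against −0.13 in wild-type ES cells, a difference of 1.14 ± 0.13 (SD over 4 probes), with all 4 probes higher. Tbx3 region 2 was at 0.59 in aid-/- against −0.39 in wild-type ES cells, a difference of 0.98 ± 1.36 (SD over 6 probes) with 4 of 6 probes higher, and was not listed. With the arrays scaled to a common plateau neither listed region passed, at differences of 0.95 for Tbx5 region 2 and 0.90 for Tbx3 region 3. Probes under 40% GC had a median log2 ratio of 0.05 on the aid-/- ES array and −1.17 on the wild-type array. After correction for probe GC the differences were 1.21 at Tbx5 region 2, 1.05 at Tbx3 region 3 and 1.03 at Tbx3 region 2, and 3 members were listed.

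In mbd4-/- ES cells none of the 10 member regions was listed, where 7.63% of all regions were higher and 2.57% lower. Among these 10 the largest differences were 0.80 ± 0.33 (SD over 3 probes) at Tbx5 region 2, at 2.42 in mbd4-/- against 1.62 in wild-type ES cells, and 0.77 ± 0.43 (SD over 4 probes) at Tbx2 region 3, at 0.96 in mbd4-/- against 0.19 in wild-type ES cells. At Tbx3 region 2 the difference was −0.19 ± 0.85 (SD over 6 probes), with 3 of 6 probes higher.

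In Gadd45a knockdown ES cells 1 of the 10 member regions was listed as higher and 1 as lower, where 6.41% of all regions were higher and 6.46% lower. Both were regions of Tbx2. Region 3 was at 1.92 in the knockdown against 0.19 in wild type, a difference of 1.73 ± 1.63 (SD over 4 probes), which rested on the probes starting at 85647033 and 85647100 with log2 ratios of 3.43 and 3.82 in the knockdown, against 0.91 and 0.19 in wild type. Region 1 was at −1.02 in the knockdown against 0.58 in wild type, a difference of −1.60 ± 1.57 (SD over 3 probes), and its lowest probe was at −2.86 in the knockdown against 0.54 in wild type. The SD over probes was about as large as the difference at both. Probes under 40% GC had a median log2 ratio of −1.49 on the knockdown array and −1.17 on the wild-type array. For probes of 60% GC or more the medians were 0.64 and 0.28. The probes of these regions had 41.2% to 64.4% GC, so none was under 40%. After correction for probe GC the differences were 1.68 at region 3 and −1.37 at region 1.

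Liver and spleen of the 2 knockouts were set against each other, tissue by tissue. In liver 4 of the 10 member regions were listed as lower in aid-/- than in mbd4-/- and none as higher, where 7.64% of all regions were lower and 1.35% higher. Tbx3 region 2 was at 2.14 in aid-/- liver against 3.41 in mbd4-/- liver, a difference of −1.27 ± 0.50 (SD over 6 probes), lower at 6 of 6 probes. Tbx3 region 3 differed by −1.20 ± 0.36 (SD over 4 probes), at 1.54 in aid-/- against 2.73 in mbd4-/- liver. Tbx2 region 5 differed by −1.20 ± 0.62 (SD over 3 probes), at 0.81 in aid-/- against 2.01 in mbd4-/- liver, and Tbx2 region 4 by −1.07 ± 0.26 (SD over 11 probes), at 0.52 in aid-/- against 1.60 in mbd4-/- liver and lower at 11 of 11 probes. The plateau of the aid-/- liver array was also lower, 2.25 against 3.98 in mbd4-/- liver. With the arrays scaled to a common plateau none of the 4 was listed, and the difference at Tbx3 region 2 turned to 0.32. In spleen none of the 10 regions was listed, where 7.61% of all regions were lower and 0.289% higher, and Tbx3 region 2 was at 1.29 in aid-/- against 1.13 in mbd4-/- spleen, a difference of 0.16 ± 0.57 (SD over 6 probes).

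**Figure D4:**
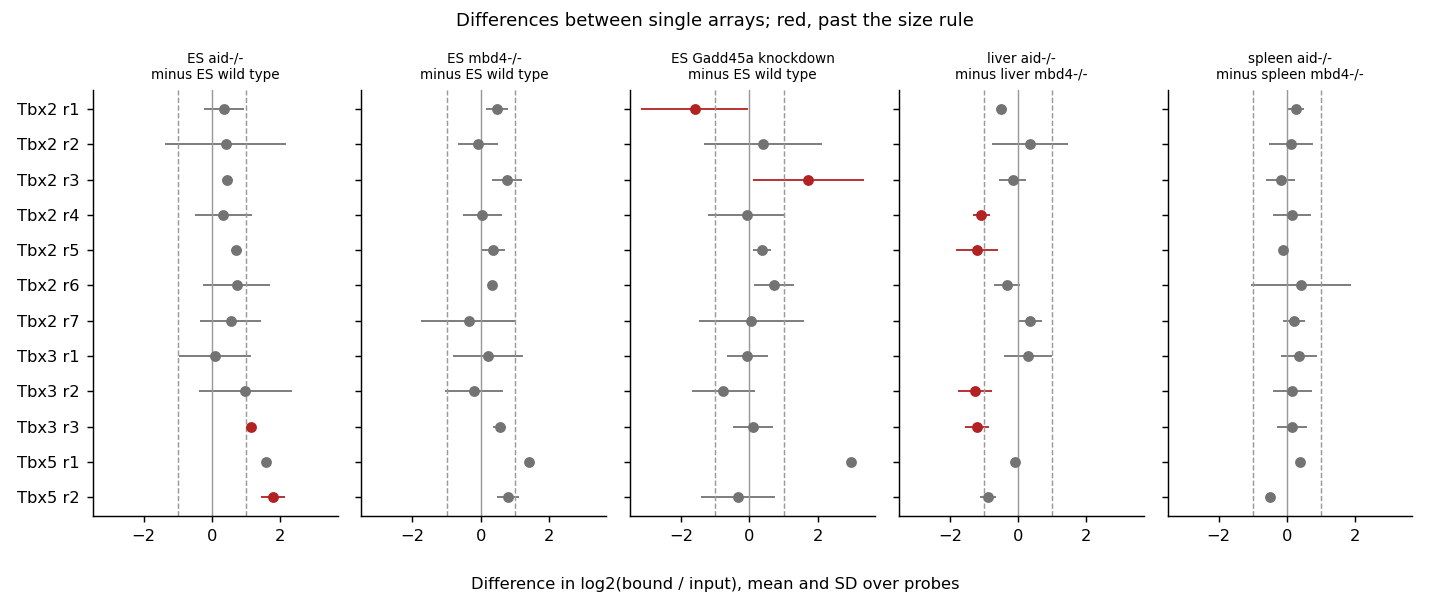
Difference in level (log2 units, first group minus second) of each member region in the 5 comparisons of single arrays, with bars showing 1 SD over the region's probes. Red marks the regions listed as higher or lower, dashed lines mark a difference of 1 either way, and Tbx5 region 1 has no bar and no listing because it is 1 probe. In the liver comparison 4 regions lie at or below −1.07.

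Across tissues, the 4 ES arrays were compared with the 4 liver and spleen arrays by limma over all 13147 regions. The arrays averaged for a tissue differed in genotype. At an adjusted p of 0.05 none of the 10 member regions passed, where 0.198% of all regions did (15.8% at an unadjusted p under 0.05, among them 4 of the member regions). Tbx3 region 2 averaged −0.39 ± 0.73 in ES cells and 1.99 ± 1.04 in liver and spleen (SD, n = 4 each), a difference of −2.38 ± 0.41 (SE) with a limma adjusted p of 0.065. The groups did not overlap, as in 7.76% of all regions in that direction, and the exact two-sided permutation p was 0.0286, the smallest that 4 arrays against 4 allow. Its difference stood at percentile 0.198 of all regions. Within scan day 1, where aid-/- and wild-type ES cells stood beside aid-/- liver and aid-/- spleen, the difference was −1.62, against a median of −0.10 over all regions, and with scan day as a block the limma adjusted p was 0.206. On the slide that held both, aid-/- liver was above aid-/- ES cells by 1.55 ± 0.91 (SD over 6 probes), at 6 of 6 probes.

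The remaining members differed less between ES cells and tissues. Tbx3 region 3 averaged 0.33 ± 0.52 in ES cells and 1.31 ± 1.07 in liver and spleen (SD, n = 4 each), a difference of −0.98 with a limma adjusted p of 0.230. Among the 10 tested regions Tbx2 region 2 was the other whose groups did not overlap, at −0.55 ± 0.26 in ES cells and −0.07 ± 0.16 in liver and spleen (SD, n = 4 each), a difference of −0.47 with a limma adjusted p of 0.298 and an exact permutation p of 0.0286. Its groups were barely apart: mbd4-/- liver was above aid-/- ES cells by 0.02 ± 1.72 (SD over 7 probes). All 4 tissue arrays were above all 4 ES arrays at 0 of its 7 probes. Of all regions, 7.76% had groups that did not overlap in that direction. Tbx5 region 2 averaged 2.18 ± 0.95 in ES cells and 1.54 ± 0.49 in liver and spleen (SD, n = 4 each), with a limma adjusted p of 0.536. With the arrays scaled to a common plateau, Tbx3 regions 2 and 3 did pass, at differences of −2.72 and −1.21 and limma adjusted p of 0.00455 and 0.0298.

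**Figure D5:**
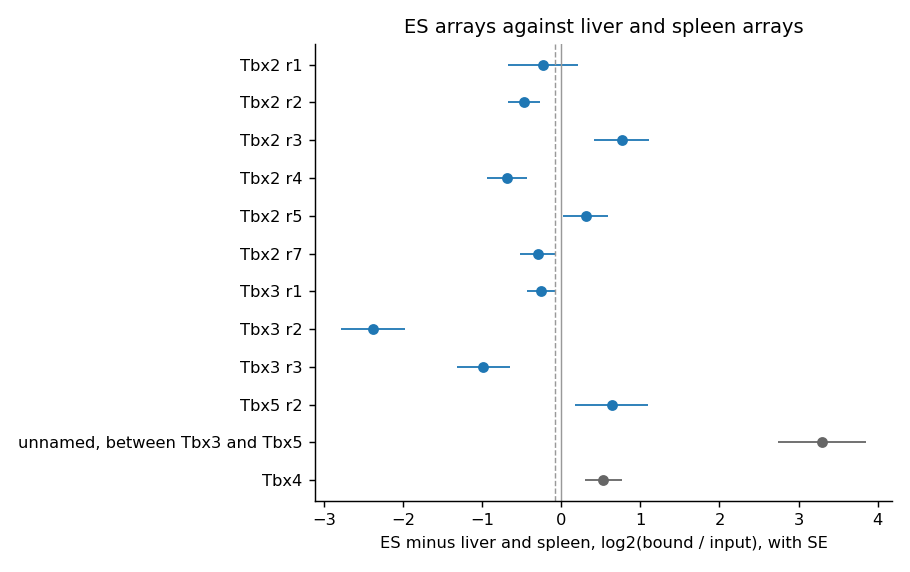
Difference in level (log2 units, ES cells minus liver and spleen, horizontal axis) of the 10 member regions in blue and of 2 neighbours in grey, with bars showing 1 SE from limma and the dashed line at the median of all regions. Tbx3 region 2 lies at −2.38, and the unnamed region between Tbx3 and Tbx5 at 3.30.

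Set against ES cells on its own in the same limma fit, a contrast added after the values were seen, liver averaged 2.77 ± 0.90 (SD, n = 2) at Tbx3 region 2 and ES cells −0.39 ± 0.73 (SD, n = 4), a difference of 3.16 with a limma adjusted p of 0.061. By that test none of the 10 members passed in liver against ES, where 0.183% of all regions did, or in spleen against ES, where 0.00761% did. With the arrays scaled to a common plateau, Tbx3 regions 2 and 3 passed in liver against ES at differences of 3.50 and 2.06 (limma adjusted p 0.00578 and 0.00951), and with the deposited value table at 4.89 and 2.61 (0.00129 and 0.00361). Spleen averaged 1.21 ± 0.12 (SD, n = 2) at Tbx3 region 2, a difference of 1.60 from ES cells with a limma adjusted p of 0.320, and of the alternatives run it passed only with the deposited value table, at 2.35 (limma adjusted p 0.0490).

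Both livers were above both spleens at Tbx3 regions 2 and 3, but the 2 arrays a tissue gave no call anywhere: by limma 0 of 13147 regions passed at an adjusted p of 0.05 (0%), and 1.53% had an unadjusted p under 0.05, among them 3 member regions. Tbx3 region 3 averaged 2.13 ± 0.85 in liver and 0.49 ± 0.11 in spleen (SD, n = 2 each), a difference of 1.65 with a limma adjusted p of 1.00, and Tbx3 region 2 averaged 2.77 ± 0.90 in liver and 1.21 ± 0.12 in spleen, a difference of 1.56 with the same adjusted p. On the slide that held both, mbd4-/- liver was above mbd4-/- spleen at Tbx3 region 2 by 2.28 ± 0.41 (SD over 6 probes), at 6 of 6 probes, and on scan day 1 aid-/- liver was above aid-/- spleen by 0.85 ± 0.69, at 5 of 6 probes. Tbx2 region 4 averaged 1.06 ± 0.76 in liver and 0.21 ± 0.11 in spleen (SD, n = 2 each), and both liver arrays were above both spleen arrays. The same held at Tbx2 regions 1 and 5, so that it was found at 5 of the 10 member regions, where 14% of all regions showed it. These are neighbouring regions of Tbx2 and Tbx3 read from the same arrays, so they are not independent members. The genotypes aid-/- and mbd4-/-, compared over ES cells, liver and spleen with tissue as a block, gave no region past an adjusted p of 0.05 by limma (0% of 13147, and 10.8% at an unadjusted p under 0.05). Tbx3 region 2 averaged 1.34 ± 0.78 in aid-/- and 1.32 ± 2.00 in mbd4-/- arrays (SD, n = 3 each), a limma difference of 0.02 with an adjusted p of 0.988. When either the aid-/- or the mbd4-/- ES array was left out, 8.25% of all regions and still none of the members passed. With tissue as a block, both of these fits compare the genotypes in liver and spleen alone.

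Regions within 250 kb of the members did not all run the way of Tbx3 region 2. The unnamed region at chr5:120246491-120246888 (5 probes), 113 kb from Tbx3 region 3 and 48.3 kb from Tbx5 region 1, was at 3.86 in aid-/- ES, 3.41 in mbd4-/- ES, 1.06 in Gadd45a knockdown ES and 2.77 in wild-type ES cells, against −0.21 in aid-/- liver and −0.83 in mbd4-/- liver and −0.23 in aid-/- spleen and −0.83 in mbd4-/- spleen. All 4 ES arrays were above all 4 tissue arrays at 5 of 5 probes. It averaged 2.77 ± 1.23 in ES cells and −0.52 ± 0.35 in liver and spleen (SD, n = 4 each), a difference of 3.30 with a limma adjusted p of 0.065 and an exact permutation p of 0.0286, and the difference within scan day 1 was 3.53. By the size rule it was higher in aid-/- than in wild-type ES cells by 1.10 ± 0.46 (SD over 5 probes). It was lower in Gadd45a knockdown than in wild-type ES cells by 1.71 ± 0.89 (SD over 5 probes). As a percentage of the array's plateau it stood at 86.9 in aid-/-, 82.9 in wild-type and 38.8 in Gadd45a knockdown ES cells. The part of the plateaus in these differences was not tested.

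The other neighbours differed less. A second unnamed region at chr5:120253257-120254944 (11 probes) averaged 0.27 ± 0.51 in ES cells and −0.14 ± 0.45 in liver and spleen, with a limma adjusted p of 0.556. The region of Rbm19, which encodes an RNA-binding protein of ribosome production, 249 kb from Tbx5 region 2, averaged −0.76 ± 0.15 in ES cells and −0.15 ± 0.36 in liver and spleen (SD, n = 4 each), with a limma adjusted p of 0.259 and no overlap between the groups. Tbx4, the hindlimb T-box gene 41.5 kb from Tbx2 region 7, was at 2.18, 1.48, 1.56 and 1.22 in aid-/-, mbd4-/-, Gadd45a knockdown and wild-type ES cells, 1.00 in aid-/- liver and 0.73 in mbd4-/- liver and 1.37 in aid-/- spleen and 1.20 in mbd4-/- spleen. It was above the array median throughout, and its ES and tissue levels overlapped.

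Other T-box genes gave a yardstick for the family. Of 14 further members, 10 had regions with at least 3 probes, 19 of the 20 T-box regions outside the 3 genes, and their ranges over the 8 arrays ran from 0.66 to 2.39 log2 units with a median of 1.06. The 10 regions of Tbx2, Tbx3 and Tbx5 ranged from 0.56 to 4.56 with a median of 1.84. A range under 2 was found at 6 of these 10 and at 18 of the 19 other T-box regions. The exception among the 19 was a region of Tbr1, a regulator of cortical neurons. Over all 13147 regions the median range was 1.09. A range of 1.87 (Tbx2 region 3) stood at percentile 82.3 of all regions, and 2.31 (Tbx2 region 1) at percentile 88.5. The range of Tbx2 region 1 rested on its low value of −1.02 in Gadd45a knockdown ES cells. The 3 genes were chosen with earlier results known, so this comparison is a description. Differences between ES cells and tissues ran from −2.38 to 0.76 at the 10 regions and from −0.67 to 1.04 at the 19, of which none passed limma at an adjusted p of 0.05. By the size rule, 1 of 2 Tbx18 regions was higher by 1.05 in aid-/- than in wild-type ES cells, while the other differed by −0.65. Of 3 Tbr1 regions, 2 were higher by 1.04 and 1.05 in mbd4-/- than in wild-type ES cells. Of 6 regions of Tbx1, a gene of pharyngeal and heart development, 1 was lower in Gadd45a knockdown than in wild-type ES cells at a difference of −1.25, and the others differed by −0.70 to 0.41. In liver 1 of the 2 Tbx18 regions was higher by 1.03 in aid-/- than in mbd4-/-, and no other T-box region was listed in liver or spleen. Over the 19 regions, 5.26% were higher in aid-/- and 10.5% in mbd4-/- ES cells, where 8.74% and 7.63% of all regions were. In the knockdown 5.26% were lower, against 6.46% of all regions. In liver 5.26% were higher in aid-/- than in mbd4-/-, against 1.35% of all regions.

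Regulators of heart and limb development, a list with regions for 24 of 25 genes and 63 regions, were listed as higher at 11 and lower at 2 in aid-/- against wild-type ES cells (17.5% and 3.17% of the list, where 8.74% and 2.18% of all regions were). They were higher at 9 and lower at 2 in mbd4-/- against wild-type ES cells (14.3% and 3.17%, against 7.63% and 2.57% of all regions). In Gadd45a knockdown against wild-type ES cells they were higher at 2 and lower at 7 (3.17% and 11.1%, against 6.41% and 6.46% of all regions). Sall4, a zinc finger gene of pluripotency and limb development that Tbx5 regulates, was higher at 3 regions in aid-/- ES cells, by 1.25 to 1.55. Aid-/- liver was higher at 3 and lower at 8 of these regions than mbd4-/- liver (4.76% and 12.7%, against 1.35% and 7.64% of all regions), and aid-/- spleen higher at 1 and lower at 3 than mbd4-/- spleen (1.59% and 4.76%, against 0.289% and 7.61%). The median difference over the 63 regions was 0.17 in aid-/- ES cells against 0.08 over all regions, and −0.22 in Gadd45a knockdown ES cells against 0.12 over all regions. Between ES cells and tissues 1 of the 63 regions passed: Sall1 averaged −1.07 in ES cells and 1.29 in liver and spleen, a difference of −2.36 with a limma adjusted p of 0.0241. Sall1, a zinc finger gene, and Meis2, a homeobox gene, also passed in liver against ES cells at differences of 2.58 and 3.16, with a limma adjusted p of 0.0365 each.

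Genes known as targets of T-box factors had regions for 8 of 13 genes, 10 in all. Cdkn1a, which encodes the cell cycle inhibitor p21, was at 4.76 in aid-/-, 4.65 in mbd4-/- and 0.49 in Gadd45a knockdown ES cells, against 3.27 in wild-type ES cells. It was thus listed as higher in both knockouts and lower in the knockdown. The plateau was 4.44 in aid-/-, 4.26 in mbd4-/-, 2.72 in Gadd45a knockdown and 3.34 in wild-type ES cells. Cdkn1a lay above it in both knockouts and close to it in wild type, and the part of the plateaus in these differences was not tested. Cdkn2a was at −2.31 in Gadd45a knockdown against −0.89 in wild-type ES cells, listed as lower, and Cdh1, the gene of E-cadherin, was lower in aid-/- ES cells at a difference of −1.02. In aid-/- liver, against mbd4-/- liver, Cdkn1a and Cdkn1c were lower at differences of −1.64 and −1.34, and Cdkn2a was higher by 1.18. In spleen Cdkn1c was lower in aid-/- than in mbd4-/- at a difference of −1.39. Of the 10 target regions, 10% were higher and 10% lower in aid-/- ES cells, against 8.74% and 2.18% of all regions. In mbd4-/- ES cells 10% were higher (7.63% of all regions), and in the knockdown 20% were lower (6.46%). In aid-/- liver 10% were higher and 20% lower than in mbd4-/- liver (1.35% and 7.64% of all regions). In aid-/- spleen 10% were lower (7.61%). With 10 regions, 1 listed region made up 10%. None of the 10 passed limma between ES cells and tissues.

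For the widest-ranging region of each gene among those with at least 3 probes, the gene-named regions with the most similar profile over the 8 arrays were found by Pearson correlation among 6767 regions with a range of at least 1 log2 unit, as a description. The points of such a correlation share 8 arrays and their plateaus. Tbx3 region 2 was most like regions of 2410025L10Rik (r = 0.973), Gcn5l2 (0.964), a histone acetyltransferase gene, and Efcab4a (0.960). The 2410025L10Rik region was at 2.00 in aid-/- liver and 3.63 in mbd4-/- liver and 1.26 in aid-/- spleen and 1.10 in mbd4-/- spleen, against −0.47 to 0.53 in ES cells. Tbx5 region 2 was most like Tmem198 (0.979), the imprinted gene Dlk1 (0.968) and 2610204M08Rik (0.952). Tbx2 region 1 was most like Pde4c (0.987), Speg (0.970) and Rasd1 (0.962). With r above 0.9 there were 54 regions for Tbx3 region 2, 80 for Tbx5 region 2 and 29 for Tbx2 region 1.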

How the data were processed

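The members and the gene lists were chosen with earlier results of these data known. The deposited scanner output gives the intensity of each spot from Agilent Feature Extraction, per the file headers in version 10.9.1.1, except for the mbd4-/- and Gadd45a knockdown ES arrays (10.7.3.1). Their processed signals are background-subtracted and dye-normalised, with spatial detrending stated for the older version, per the file headers. The deposited log10 ratio of Cy5 over Cy3 served to check direction. Cy5 was the bound DNA on all 8 arrays, per the labels, so a dye bias cannot be told apart from enrichment. The deposited value table gives a standardised score for each array (SD near 1, mean near 0). Its array medians were −0.18, −0.14, −0.10 and −0.03 for aid-/-, mbd4-/-, Gadd45a knockdown and wild-type ES cells, −0.16 for aid-/- liver, −0.15 for mbd4-/- liver, −0.10 for aid-/- spleen and −0.21 for mbd4-/- spleen. Its correlation with the scanner log ratios (r = 0.898 to 0.972) sets its direction and centring. Its scale is unknown, so it served as an alternative after multiplication by 1.28, an average of the SDs of the log2 ratios. The authors' steps to it are not stated in the labels or headers used here.

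Of 88737 probes, 326 had no position, 132 were marked as outliers and 7174 had an input signal not well above background on some array, which left 81105. Log2 ratios of the processed signals were centred on each array's median, with no loess or quantile step. Regions with at least 3 probes were tested with limma 3.58.1 in R 4.3.3 (lmFit and eBayes), with Benjamini-Hochberg adjustment over 13147 regions. Scripts were tested on simulated data. The regions named are all those of Tbx2, Tbx3 and Tbx5, the other T-box genes, regions within 250 kb, list members past a rule or test, and for each gene the 3 most similar profiles. Arrays of a tissue differ in genotype, so p-values measure the spread between arrays that are not replicates of 1 condition, and the number of arrays limits the precision. The normexp alternative used median spot signals, since some files hold no mean signals. No analysis of exons or promoters was made.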

Additional observations from a re-analysis of the deposited data

Results flagged for a closer look

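At 3 of the 10 member regions with at least 3 probes, the aid-/- minus mbd4-/- difference ran in opposite directions in ES cells and in liver. The difference was at least 0.5 log2 units each way. The share of all regions that did the same was not counted, so the pattern cannot be called particular to the members. The difference between the tissues was not tested, since each value compares 1 array with 1 array. At Tbx3 region 2 aid-/- was above mbd4-/- by 1.17 in ES cells, and the aid-/- minus mbd4-/- difference was −1.27 in liver. At Tbx3 region 3 the aid-/- minus mbd4-/- differences were 0.58 in ES cells and −1.20 in liver. At Tbx5 region 2 they were 0.99 in ES cells and −0.87 in liver. The plateau was 4.44 in aid-/- and 4.26 in mbd4-/- ES cells, and 2.25 in aid-/- and 3.98 in mbd4-/- liver. With the arrays scaled to a common plateau, the aid-/- minus mbd4-/- differences in ES cells and in liver were 0.90 and 0.32 at Tbx3 region 2, 0.43 and −0.01 at Tbx3 region 3, and 0.67 and 0.14 at Tbx5 region 2, so that the directions were no longer opposite at Tbx3 region 2 and Tbx5 region 2 and the liver difference at Tbx3 region 3 was close to 0. With the deposited value table they were 1.37 and 0.28, 0.65 and −0.40, and 0.55 and −0.19 at the same regions.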

How the results depend on the processing

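No paired analysis was possible because each group has 1 array and the labels give no replicate number to pair on. The genotypes aid-/- and mbd4-/- were matched by tissue alone, as a block in that limma fit, and without the tissue block 0 members and 0% of all regions passed, as with it. Of the recomputed member counts and median range, 100 stayed close to the reported value and 11 moved. The 100 include counts of 0 that stayed 0 in tests that few or no regions passed, so this tally is no measure of robustness. Among further recomputed results, 990 stayed close, 103 moved, 11 became stronger and 2 reversed. In aid-/- against wild-type ES cells the 2 listed members became 1 with normexp background (Tbx5 region 2 at 1.27), 0 with a common plateau, 1 of 7 with the deposited value table and 1 at a difference of at least 1.5. In Gadd45a knockdown against wild-type ES cells 2 became 1 of 7 with the deposited value table. In aid-/- against mbd4-/- liver 4 became 2 with normexp background and 0 with a common plateau, the deposited value table or a difference of at least 1.5, and Tbx3 region 2 reversed to 0.32 with a common plateau and to 0.28 with the value table. In ES cells against liver and spleen 0 became 2 with the value table (Tbx3 region 2 at −3.62, limma adjusted p = 0.00248, and region 3 at −1.54, 0.0127) and 2 with a common plateau. In liver against ES cells 0 became 2 with each of these, and in spleen against ES cells 0 became 1 with the value table. The causes were not tested. Leaving out each array in turn kept 0 members past limma in all 3 tests (0 to 0). Tbx3 region 2 then ran from −2.70 to −2.06, with limma adjusted p from 0.051 to 0.215, and over all alternatives from −3.62 to −1.62.

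Over all regions, the listed share was 10.9% in aid-/- ES cells (2.04% to 13.2% over the alternatives), 10.2% in mbd4-/- ES cells (1.32% to 13.1%), 12.9% in the knockdown (4.81% to 18.8%), 8.99% in liver (1.86% to 10.1%) and 7.90% in spleen (3.51% to 8.85%). The limma share for ES cells against tissues was 0.198% (0% to 3.45%). Higher regions made up 80.1% of those listed in aid-/- ES cells (98.9% with normexp background), 74.8% in mbd4-/- ES cells (90.8% with normexp), 49.8% in the knockdown (17.2% with normexp), 15.0% in liver (66.4% with a common plateau) and 3.66% in spleen (29.7% with a common plateau). With arrays centred on the low mode, the median difference over all regions was 0.25 (0.083 otherwise) in aid-/- ES cells, 0.26 (0.061) in mbd4-/- ES cells and −0.03 (0.12) in the knockdown. Scan day as a random block for aid-/- against mbd4-/- could not be fitted, and as a fixed block it cannot be estimated, since each day held 1 of these genotypes. Signal over background limited the bound channel most on the aid-/- ES array (70.6% of probes).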
